A study of Mus musculus with 17 samples.

Results

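The cytosolic ribosome of a mouse cell is built from ribosomal RNA and a fixed set of ribosomal proteins, whose genes are named Rpl for the large subunit and Rps for the small one. These genes were chosen by symbol alone, as every gene whose symbol is Rpl or Rps followed by a number, by p0 to p2 or by a, with an optional a, x or 1 at the end. The rule found 77 genes of the 24491 listed, 46 of the large and 31 of the small subunit, and used no measured value. Expression was measured as read counts per gene in 17 libraries of poly(A) RNA from wild-type CD1 mice, an outbred strain. The question was how mRNA of these genes differs with maternal age and with rapamycin, an inhibitor of the growth-regulating kinase complex mTORC1, in oocytes and in the hippocampus of adult offspring.

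Oocytes were at metaphase II of meiosis, stripped of cumulus cells with hyaluronidase and pooled at about 10 per library. One group came from aged females of 48 weeks that had received rapamycin by intraperitoneal injection at 2 mg/kg for 40 weeks, from 8 weeks of age (rapa, n = 3 libraries). The others came from untreated aged females of 48 weeks (aged, n = 2) and from young females of 4 weeks (young, n = 2). All oocyte donors were primed with the gonadotropins PMSG and then hCG, at 10 IU of each for the aged females, treated or not, and at 5 IU of each for the young ones, so age and hormone dose cannot be told apart. Hippocampus was taken whole from adult female offspring of 40 to 44 weeks, one hippocampus per library, born to rapamycin-treated aged mothers (rapa offspring, n = 3), aged mothers (aged offspring, n = 3) or young mothers (young offspring, n = 4). The offspring themselves were not treated. Nothing in the labels says that replicate libraries represent different animals. The p-values therefore reflect library-to-library spread alone, some of which may be technical.

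Each ribosomal protein sits at a known place in the ribosome, and growing cells make the whole set in matched amounts. Most of their mRNAs begin with a C followed by an unbroken run of pyrimidines, the terminal oligopyrimidine (TOP) motif, through which mTORC1 controls how well they are translated. A fully grown oocyte no longer transcribes and lives on stored mRNA, whereas the hippocampus holds neurons, glia and vessel cells that transcribe these genes throughout life.

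The bases around the transcription start are where a TOP motif would lie, so they are shown for genes that the results name. Starts were taken from RefSeq on GRCm38.p6, whose table held 57 of the 77 genes. Each line gives 15 bases on either side of a listed start, 5′ to 3′ on the strand of the gene. Capitals mark the longest unbroken run of C and T that overlaps the 10 bases on either side of the start. Where runs tied in length, as in Rps7, the first of them is marked.
Rps15a, chr7:118116133-118116162, minus strand: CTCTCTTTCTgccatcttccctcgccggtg
Rplp2, chr7:141447636-141447665, plus strand: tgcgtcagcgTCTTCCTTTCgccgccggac
Rpl35, chr2:39005117-39005146, minus strand: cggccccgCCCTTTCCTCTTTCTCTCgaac
Rps2, chr17:24720048-24720077, plus strand: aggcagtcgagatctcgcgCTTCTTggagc
Rps7, chr12:28635939-28635968, minus strand: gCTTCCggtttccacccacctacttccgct
Rplp0, chr5:115559452-115559481, plus strand: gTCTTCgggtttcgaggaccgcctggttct
Rps6, chr4:86857353-86857382, minus strand: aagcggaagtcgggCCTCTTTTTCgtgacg
Rps10, chr17:27635230-27635259, minus strand: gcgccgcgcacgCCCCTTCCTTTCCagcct
Rpl35a, chr16:33056467-33056496, plus strand: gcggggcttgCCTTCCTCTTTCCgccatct
Rpsa, chr9:120127751-120127780, plus strand: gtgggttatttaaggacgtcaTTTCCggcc

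The runs of these genes differ in length. The run is 18 bases long in Rpl35, 13 in Rpl35a and Rps10, 10 in Rps15a, Rplp2 and Rps6, 6 in Rps2, and 5 in Rps7, Rplp0 and Rpsa. A run of at least 8 bases was found at 27 of the 57 ribosomal protein genes (47.4%), against 15.8% of the 27025 genes in the table. On the opposite strand the share was 7.02% of the 57 genes, against 17.4% of the table. The shorter word CTTTC lay within 10 bases of the start, on the strand of the gene, in 17.5% of the 57 genes and in 2.91% of the table. The word CGGAAG, searched on both strands over 250 bases before and 50 bases after the start, was present in 70.2% of the 57 genes, against 18.8% of the table. These matches describe letters near a listed start, which need not be the first base of the mRNA.

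Oocyte libraries held 3912163 to 8334873 gene counts and hippocampus libraries 16434398 to 20220617. Levels are given as counts scaled to the normalised library size (CPM), at which 3 counts in one library correspond to 0.349 to 0.809 CPM in oocytes and 0.151 to 0.187 CPM in hippocampus. Markers of the labelled cells were present, with all 12 oocyte markers at 10 counts or more in every oocyte library and all 10 neuron markers in every hippocampus library. Some markers of other cells were present too. In every oocyte library 4 of 6 endothelial markers and 2 of 10 neuron markers reached 10 counts, and the endothelial markers summed to 37.4 to 180 CPM. The haemoglobin genes Hba-a1 and Hbb-bs were at 0 in all 17 libraries. The cause was not tested, so these zeros do not show that blood was absent. One library stood apart: in rapa oocytes replicate 1, oocyte markers summed to 5913 CPM, against 27353 to 35078 CPM in the other 6 oocyte libraries. Its markers of cumulus and granulosa cells summed to 264 CPM, against 46.3 to 104 CPM elsewhere. The main oocyte results are therefore also given without it.

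Ribosomal protein mRNA took a small share of the oocyte reads. The 77 genes received 0.167%, 0.168% and 0.206% of gene counts in rapa oocytes, against 0.0873% and 0.114% in aged oocytes, and 0.188% and 0.174% in young oocytes. Both aged libraries lay below the other 5, and the rapa and young libraries overlapped. In hippocampus the share was larger, and the 3 groups overlapped. It was 1.09%, 2.92% and 1.48% in rapa offspring, 2.81%, 2.56% and 2.00% in aged offspring, and 1.69%, 3.10%, 1.39% and 1.82% in young offspring. In these whole-tissue and pooled-cell libraries, fewer cells of a type and less mRNA per cell cannot be told apart. Oocyte libraries were primed with oligo-dT, so mRNA amount and poly(A) tail length cannot be told apart in them either.

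After a filter on low counts, 71 of the 77 genes could be tested in oocytes, among 10083 genes, and 74 in hippocampus, among 14877. Rpl26 was at 0 counts in all 17 libraries, and Rps27 at 0 in all 7 oocyte libraries and at 2 to 13 counts in hippocampus. Rpl30 received at most 1 count per oocyte library and at most 9 per hippocampus library, and Rpl34 at most 18 and 6. Rpl12 had up to 17 counts and Rpl9 up to 83 in oocytes, and both were left out there. These low counts stand beside the many copies of ribosomal protein genes in the mouse genome. Of all 75-base words in the transcripts of Rps27, 1.48% occurred in no other annotated gene, and the share was 34.9% for Rpl30, 42.5% for Rpl26 and 58.6% for Rpl34. It was 15.8% for Rpl9 and 52.05% for Rpl12. Low shares were also found for genes with high counts, such as Rpl5, at 7.51% and a mean of 286 CPM in hippocampus. Across the 77 genes the median share was 48.7%, 41 genes lay under 50%, and 9 reached at least 90%. Reads without a unique position made up 10.0% to 15.9% of oocyte reads and 5.09% to 8.01% of hippocampus reads, and their part in the low values was not tested. Levels of genes with near-identical copies are therefore uncertain.

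The order of the genes by level differed between the tissues. Per kilobase of coding sequence, the highest mean levels in oocytes were those of Rps15a, a small-subunit protein, at 413 CPM, and the acidic stalk protein Rplp2 at 278 CPM. The lowest levels per kilobase among those tested in oocytes were 3.66 CPM for Rpl3, which shapes the peptidyl transferase centre, 5.38 CPM for the small-subunit protein Rpsa, and 5.64 CPM for Rpl7. In hippocampus the highest were Rpl41, the shortest ribosomal protein, at 2859 CPM per kilobase, the stalk protein Rplp1 at 2111 and the small-subunit protein Rps14 at 1137. Counts are per gene, and Rpl41 has 75 coding bases in a transcript of 437, so division by coding length raises its value. Undivided, Rpl41 averaged 214 CPM, against 722 CPM for Rplp1 and 515 CPM for Rps14. The lowest per kilobase in hippocampus were Rps27 at 1.65 CPM, then Rpl29 at 180 and Rpl3 at 293. The median per kilobase was 21.3 CPM over 71 genes in oocytes and 516 CPM over 74 genes in hippocampus. Over the 71 genes tested in both tissues, Spearman's rho between the mean levels per kilobase was 0.234, a description across genes of libraries made with different kits. The oocyte means include rapa replicate 1, where Rpl3 stood at 22.3 CPM, against 0.270 to 2.83 CPM in the other oocyte libraries. These rankings and the rho were not computed without that library.

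**Figure D1:**
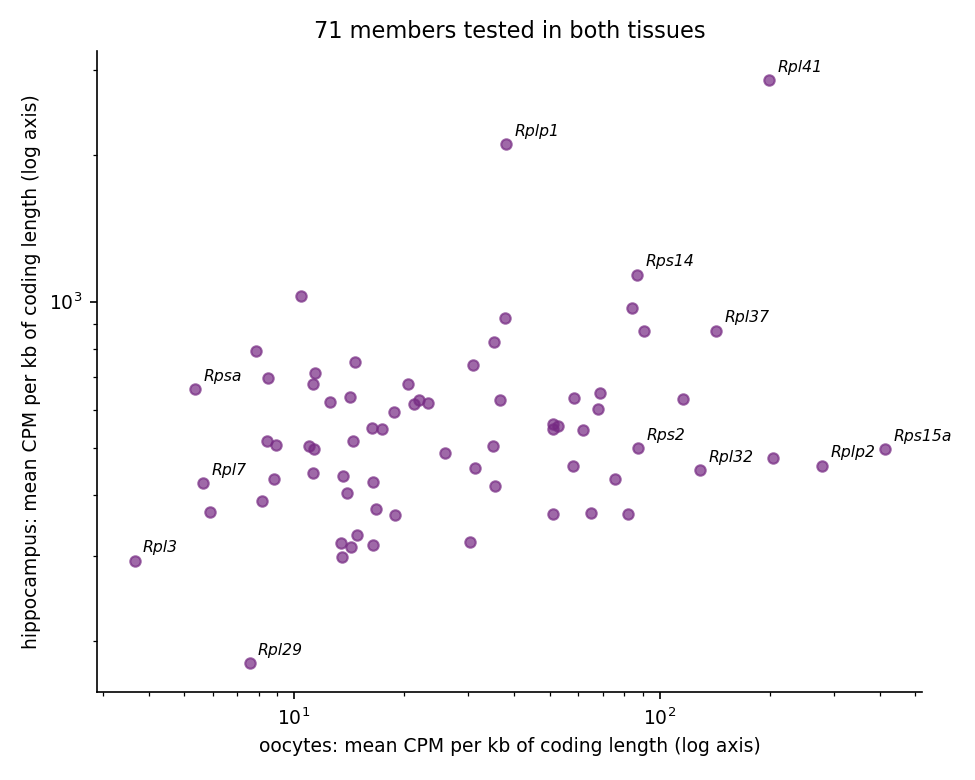
Mean level of each ribosomal protein gene per kilobase of coding sequence, in CPM on log axes, in oocytes and hippocampus; each point is a gene tested in both tissues. Rps15a and Rplp2 lie highest in oocytes, Rpl41 and Rplp1 highest in hippocampus, and Spearman's rho is 0.234. Oocyte means include rapa replicate 1, and the length used counts coding bases only.

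Within oocytes, 6 of the 7 libraries shared one order of the genes. Spearman's rho between libraries over the 71 genes was 0.879 to 0.944 among those 6, and 0.453 to 0.555 between rapa replicate 1 and each of them. The 3 genes with the most counts took 17.9% of ribosomal protein counts in rapa replicate 1, where they were Rplp0, Rpl13a and Rpl4. In the other 6 libraries the top 3 took 28.1% to 31.2%, and Rps15a ranked first or second in each. Rps15a stood at 14.2, 208 and 234 CPM in rapa oocytes, 121 and 149 CPM in aged oocytes, and 251 and 152 CPM in young oocytes. Rplp0, the protein at the base of the stalk, stood at 186, 51.2 and 71.9 CPM in rapa oocytes, 55.3 and 51.0 CPM in aged oocytes, and 69.1 and 60.1 CPM in young oocytes. Rapa replicate 1 was thus the lowest library for Rps15a and the highest for Rplp0. In hippocampus, rho between libraries was 0.934 to 0.991 over 74 genes, with Rpl4 or Rplp1 first in all 10 libraries.

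To place whole libraries on one scale, the log2 CPM of each gene was set against its own mean over the libraries of that tissue, and the median over the tested genes was taken. In oocytes this level was 1.27, 0.21 and 0.23 in rapa libraries, −0.98 and −0.34 in aged libraries, and 0.07 and −0.14 in young libraries. Both aged libraries were lowest, and the 3 rapa libraries were highest. Of the 71 genes, 58, 48 and 50 lay above their own mean in rapa libraries, against 4 and 15 in aged libraries, and 38 and 28 in young libraries. Both subunits followed this order: the small-subunit level was 1.53, 0.26 and 0.30 in rapa libraries, −1.29 and −0.30 in aged libraries, and 0.11 and −0.24 in young libraries, and the large-subunit level was 1.22, 0.09 and 0.19, then −0.87 and −0.35, then 0.05 and −0.06 in the same libraries.

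**Figure D2:**
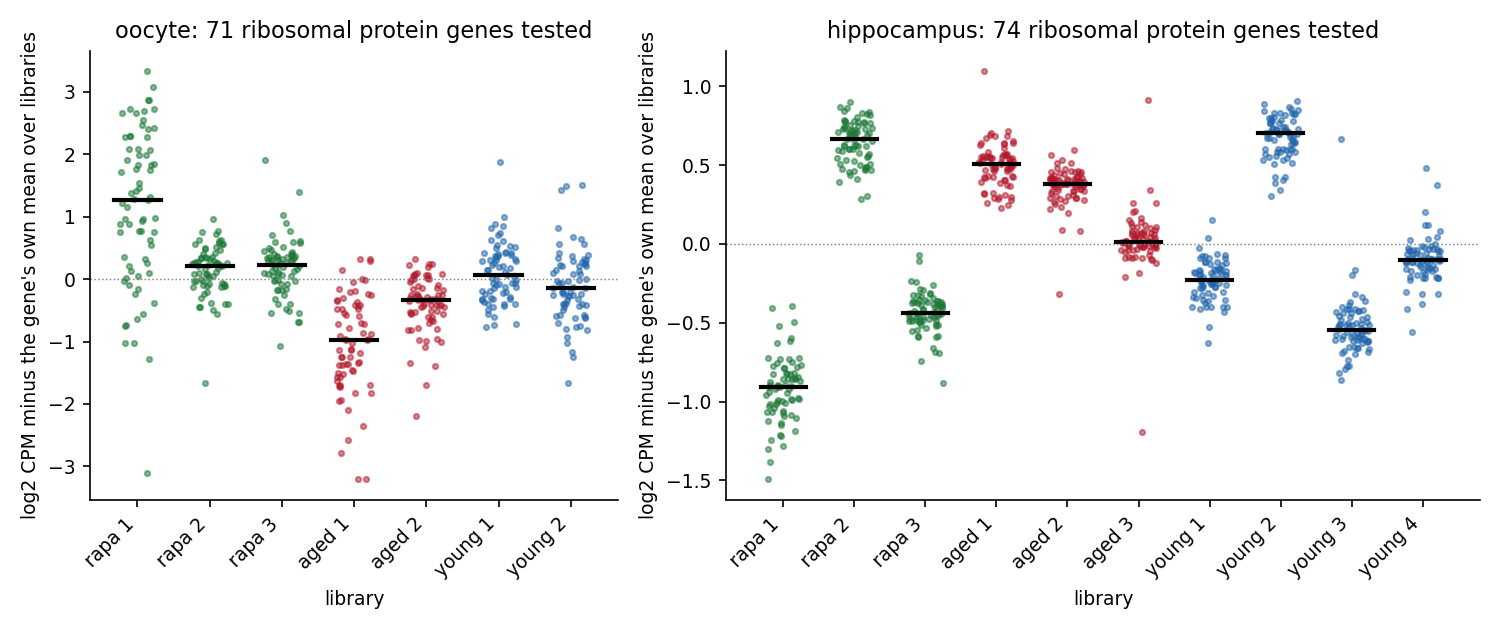
Log2 CPM of each tested ribosomal protein gene minus its own mean over the libraries of its tissue, by library, with rapa, aged and young libraries from left to right; points are genes and black bars the median. In oocytes the aged libraries have medians of −0.98 and −0.34 and rapa replicate 1 has 1.27; in hippocampus the medians range from −0.91 to 0.70 with no separation by group.

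The levels of other gene groups differed between the oocyte libraries too. The level of the nuclear genes of the respiratory chain, 65 tested, was 0.24, 0.06 and 0.17 in rapa libraries, −0.60 and −0.23 in aged libraries, and 0.45 and 0.12 in young libraries. Mitochondrial ribosomal protein genes, 66 tested, stood at 0.06, 0.11 and 0.19 in rapa libraries, −0.30 and −0.19 in aged libraries, and 0.26 and 0.23 in young libraries. The aged libraries were lowest for both groups. The 586 other genes with under 450 coding bases gave 0.22, 0.11 and 0.14 in rapa libraries, −0.43 and −0.22 in aged libraries, and 0.34 and 0.14 in young libraries. For the 996 other genes with over 3600 coding bases the values were −0.31, 0.13 and 0.01 in rapa libraries, 0.17 and 0.11 in aged libraries, and −0.04 and 0.18 in young libraries. The part of transcript length in the ribosomal protein result was not tested.

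Aged oocytes were first compared with young ones, a question of maternal age. Of the 71 genes, 59 had a log2 fold change below 0 and 12 above 0, with a median of −0.67, against −0.01 over all genes tested. In edgeR's quasi-likelihood test with all 7 libraries, 0 of the 71 passed an adjusted p of 0.05, where 0.268% of all genes passed (27 of 10083). DESeq2 also called 0, where it called 2.86% of all genes. At an unadjusted p under 0.05, 7 were lower and 0 higher, where the share of all genes was 5.11% lower and 6.42% higher. The aged libraries lay wholly below the young ones for 35 genes and wholly above for 2, Rpl28 and Rps26, where 31.7% and 29.6% of all genes did so. In this and the other oocyte comparisons, genes were scattered with a biological coefficient of variation of 49.5%, and of 28.1% without rapa replicate 1.

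Without rapa replicate 1, which is in neither group but shares in the estimate of spread, 7 of 72 tested genes were called lower in aged oocytes and 0 higher, where 5.16% of all genes were called lower and 6.27% higher. They were Rps2, Rps7, Rpl35, Rpl17, Rplp1, Rplp2 and Rpl5, the same 7 as at the unadjusted p above. A fit of the aged and young libraries alone called the same 7. None of them had 90% unique words, so their levels are uncertain. Markers of cumulus and granulosa cells, of which 2 of 15 reached 10 counts in every oocyte library, summed to 53.9 and 59.6 CPM in aged oocytes, against 104 and 88.3 CPM in young oocytes. The 7 of them that were tested had a median log2 fold change of −0.62, with 5 below 0 and 2 above, and their part in the result was not tested.

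Among these 7, Rps2, which lies where the mRNA enters the small subunit, had the largest difference. Rps2, at chr17:24718116-24721929 (gene positions are those of GENCODE M21 on GRCm38), stood at 15.6 and 16.9 CPM in aged oocytes, against 166 and 127 CPM in young oocytes, and at 26.9, 13.8 and 170 CPM in rapa oocytes. Both aged libraries lay far below both young ones, while one rapa library lay with the young and the other rapa libraries near the aged. The log2 fold change of aged over young was −3.17 ± 1.10 (SE), with an edgeR adjusted p of 0.336 with all libraries and 0.0444 without rapa replicate 1. Rps2 shares words with 50 other annotated genes, and 28.9% of its words are unique.

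Rps7, a small-subunit protein that binds the p53 regulator Mdm2 and is mutated in some patients with Diamond-Blackfan anaemia, lies at chr12:28630854-28635953. It stood at 3.50 and 4.94 CPM in aged oocytes, against 13.3 and 16.8 CPM in young oocytes, and at 20.4, 12.5 and 12.2 CPM in rapa oocytes. Both aged libraries were below all 5 others. The log2 fold change of aged over young was −1.82 ± 0.52, with an edgeR adjusted p of 0.279 with all libraries and 0.0235 without rapa replicate 1.

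Rpl35 and Rpl17 lie around the tunnel through which the new peptide leaves the large subunit. Rpl35, at chr2:39001580-39005624, stood at 7.55 and 8.09 CPM in aged oocytes, against 16.1 and 48.2 CPM in young oocytes, and at 34.9, 17.7 and 17.3 CPM in rapa oocytes. Rpl17 stood at 19.9 and 41.1 CPM in aged oocytes, against 75.8 and 151 CPM in young oocytes, and at 25.8, 60.6 and 74.7 CPM in rapa oocytes. Aged and young libraries did not overlap for either gene, and aged and rapa libraries overlapped for Rpl17. For aged over young, Rpl35 had a log2 fold change of −2.04 ± 0.65 and edgeR adjusted p of 0.316 with all libraries and 0.0324 without rapa replicate 1. For Rpl17 the values were −1.89 ± 0.65, 0.332 and 0.0257. With all libraries but young replicate 2, the log2 fold change was −1.01 for Rpl35 and −1.27 for Rpl17. All 8 tested genes of the tunnel list had fold changes below 0, with a median of −1.25.

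The acidic stalk recruits elongation factors to the ribosome, and Rplp1 and Rplp2 form its arms. Rplp1, at chr9:61913284-61914542, stood at 3.77 and 6.07 CPM in aged oocytes, against 20.5 and 12.8 CPM in young oocytes, and at 26.1, 8.78 and 13.1 CPM in rapa oocytes. Rplp2, at chr7:141447370-141451585, stood at 55.5 and 71.2 CPM in aged oocytes, against 159 and 118 CPM in young oocytes, and at 60.8, 95.6 and 112 CPM in rapa oocytes. The aged libraries lay below the young ones for both genes, and rapa replicate 1 lay between the aged libraries for Rplp2. For aged over young, the log2 fold change of Rplp1 was −1.74 ± 0.65, with an edgeR adjusted p of 0.372 with all libraries and 0.0406 without rapa replicate 1. That of Rplp2 was −1.13 ± 0.44, with adjusted p of 0.392 and 0.0332.

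Rpl5 and Rpl11 bind the 5S ribosomal RNA, and outside the ribosome this particle restrains Mdm2. Rpl5, at chr5:107900502-107909005, stood at 12.7 and 15.3 CPM in aged oocytes, against 31.4 and 33.9 CPM in young oocytes, and at 30.4, 39.2 and 26.5 CPM in rapa oocytes. Both aged libraries lay below all 5 others. The log2 fold change of aged over young was −1.22 ± 0.41, with an edgeR adjusted p of 0.327 with all libraries and 0.0457 without rapa replicate 1. Its partner Rpl11 stood at 18.3 and 23.1 CPM in aged oocytes and 39.4 and 33.2 CPM in young oocytes, and did not pass in either fit.

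**Figure D3:**
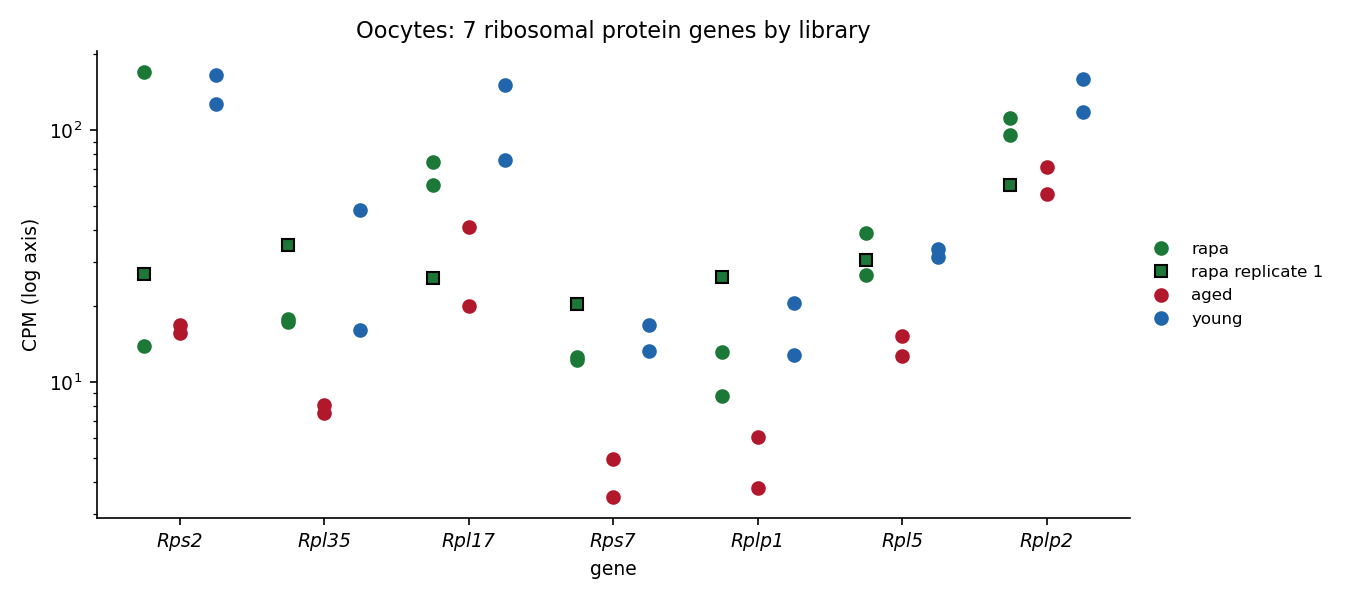
Level in CPM, on a log axis, of the 7 ribosomal protein genes that passed the test in aged against young oocytes without rapa replicate 1, in rapa, aged and young oocytes from left to right; points are libraries and the square is rapa replicate 1. Aged points lie below young points for each gene; Rps2 reads 170 CPM in one rapa library and 13.8 CPM in another.

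Genes named for their roles in the ribosome were spread around these values. Rps6, the substrate of S6 kinase downstream of mTORC1, stood at 18.5, 4.32 and 5.88 CPM in rapa oocytes, 1.35 and 3.82 CPM in aged oocytes, and 5.88 and 3.02 CPM in young oocytes, where aged and young libraries overlapped. Rps19, the gene most often mutated in Diamond-Blackfan anaemia, stood at 24.2, 5.36 and 4.07 CPM in rapa oocytes, 0 and 2.47 CPM in aged oocytes, and 3.05 and 1.86 CPM in young oocytes. Rpl22, an RNA-binding large-subunit protein, was the least variable gene of the set, with 21.2, 20.8 and 20.5 CPM in rapa oocytes, 19.4 and 14.2 CPM in aged oocytes, and 19.4 and 21.6 CPM in young oocytes. Rps19 was the most variable, with an SD of 1.81 in log2 CPM over the 7 libraries, against 0.21 for Rpl22 and a median of 0.84 over the 71 genes.

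Rpl3 and Rpsa, the lowest per kilobase in oocytes, were each highest in one library. Rpl3 stood at 22.3, 2.23 and 1.66 CPM in rapa oocytes, 0.270 and 1.35 CPM in aged oocytes, and 2.83 and 0.349 CPM in young oocytes. Rpsa stood at 15.9, 2.83 and 3.47 CPM in rapa oocytes, 0 and 3.82 CPM in aged oocytes, and 3.49 and 3.84 CPM in young oocytes. Rapa replicate 1 was the highest library for both, and the values of 0, 0.270 and 0.349 CPM rest on at most 3 counts. Rpl39, a short protein of the exit tunnel, Rps27a, made as a fusion with ubiquitin, and Rps4x, an X-linked small-subunit protein, were also highest there, at 7.80, 24.2 and 30.4 CPM. Rpl10, which joins the large subunit last, was not, at 28.5 CPM there against 19.4 to 42.3 CPM elsewhere.

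The second comparison asked how oocytes of rapamycin-treated aged females differ from those of untreated aged females. It uses the same 2 aged libraries as the first, so the comparisons are not independent. All 71 tested genes had a log2 fold change above 0, from 0.17 for Rps15a upward, with a median of 1.21, against 0.01 over all genes tested. In edgeR's quasi-likelihood test 0 of the 71 passed, with a lowest adjusted p of 0.730, and 0 of 10083 genes passed (0%). DESeq2 called 0 of the 71 and 0.109% of all genes. At an unadjusted p under 0.05, 15 were higher and 0 lower, where 3.28% of all genes were higher and 2.7% lower. Rapa libraries lay wholly above aged ones for 41 genes and wholly below for 0, where 11.7% and 13.9% of all genes did so.

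Without rapa replicate 1, all 72 tested genes again had fold changes above 0, with a median of 0.77. edgeR then called 0 of the 72, with a lowest adjusted p of 0.226, where 0.0294% of all genes passed in each direction. Of the 72, 23 were higher at an unadjusted p under 0.05, where 7.51% of all genes were. The median for the small subunit was 1.64 and for the large subunit 1.13 with all libraries. Without rapa replicate 1 the medians were 0.77 and 0.79.

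The 5 genes of smallest p in this comparison, none of which passed, were Rps7, Rps3, Rps24, Rpl5 and Rps25. Rps7, whose libraries are given above, averaged 15.05 ± 4.67 CPM in rapa oocytes (SD, n = 3) and 4.22 ± 1.02 CPM in aged oocytes (SD, n = 2), and its log2 fold change was 1.82 ± 0.49 (SE). Rps3, which holds the mRNA at its entry and whose words occur in no other annotated gene, stood at 31.99, 6.10 and 6.78 CPM in rapa oocytes, against 2.16 and 1.35 CPM in aged oocytes, a log2 fold change of 3.07 ± 0.93. Rps24, a small-subunit protein mutated in some patients with Diamond-Blackfan anaemia, stood at 21.5, 21.4 and 17.0 CPM in rapa oocytes, against 5.12 and 9.44 CPM in aged oocytes, a log2 fold change of 1.45 ± 0.45. The groups did not overlap for these 3 genes, and rapa replicate 1 was far above the other libraries for Rps3. Rpl5 had a log2 fold change of 1.19 ± 0.38. Rps25, a small-subunit protein needed for internal ribosome entry, stood at 15.6, 7.15 and 4.52 CPM in rapa oocytes, against 0.809 and 2.47 CPM in aged oocytes, a log2 fold change of 2.42 ± 0.79. The edgeR adjusted p of all 5 was 0.730. The log2 fold changes without rapa replicate 1 were 1.55 ± 0.40 for Rps7, 1.90 ± 0.55 for Rps3, 1.401 ± 0.40 for Rps24, 1.25 ± 0.34 for Rpl5 and 1.80 ± 0.64 for Rps25, with edgeR adjusted p of 0.226 to 0.242.

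The third comparison set oocytes of rapamycin-treated aged females against those of young females, using libraries that the other two share. Of the 71 genes, 57 had a log2 fold change above 0 and 14 below 0, with a median of 0.88, against 0.02 over all genes tested. Without rapa replicate 1 the counts were 49 and 23 of 72, and the median was 0.21. With all libraries and only genes of at least 10 CPM on average, the counts were 26 and 10, and the median was 0.16. edgeR's quasi-likelihood test called 0 of the 71, with a lowest adjusted p of 0.549, where 0.426% of all genes passed, and without rapa replicate 1 it called 0 of 72, where 1.45% of all genes passed higher and 1.53% lower. DESeq2 called 0 of the 71 and 2.41% of all genes. Only 1 of the 71 was higher at an unadjusted p under 0.05 and 0 were lower, where 5.29% and 3.62% of all genes were. Rapa libraries lay wholly above young ones for 22 genes and wholly below for 4, where 15.5% and 17.8% of all genes did so.

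That gene was Rpl10a, the protein of the mobile L1 stalk beside the tRNA exit site. It stood at 15.1, 2.38 and 3.31 CPM in rapa oocytes, against 1.53 and 1.16 CPM in young oocytes. These values rest on 56, 16 and 22 counts in rapa oocytes and on 7 and 10 counts in young oocytes. Only the rapa libraries brought Rpl10a past the low-count filter, so its p-value cannot be read as evidence of a difference. Rapa replicate 1 was several times above the others, and the groups did not overlap. The log2 fold change was 2.33 ± 0.97, and 1.11 ± 0.67 without rapa replicate 1. Also among the genes of smallest p were Rps10, Rpl36a and Rps13, with log2 fold changes of 1.24 ± 0.55, 1.84 ± 0.81 and 1.58 ± 0.74. They were 0.81 ± 0.43, 1.12 ± 0.65 and 0.74 ± 0.51 without rapa replicate 1. The lowest were Rpl17 at −1.08 ± 0.56 and Rps2 at −1.06 ± 0.91, which stood at −0.73 ± 0.41 and −0.66 ± 0.78 without rapa replicate 1. None of these genes passed in either fit.

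**Figure D4:**
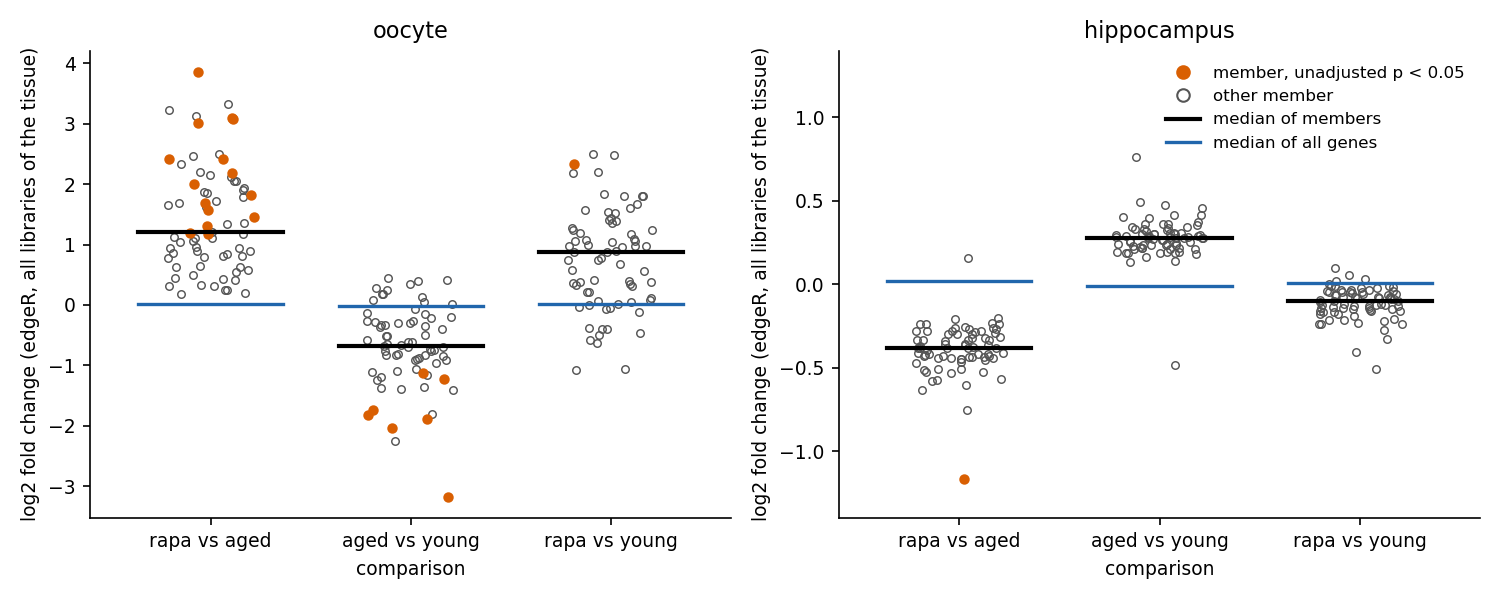
Log2 fold change of each tested ribosomal protein gene in each comparison, for oocytes and hippocampus; points are genes (members), orange marks an unadjusted p under 0.05, the black line is their median and the blue line the median of all genes tested. Oocyte medians are 1.21 for rapa over aged, −0.67 for aged over young and 0.88 for rapa over young, and hippocampus medians are −0.38, 0.28 and −0.10.

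In the hippocampus of the offspring, ribosomal protein genes varied together from library to library, and the groups overlapped. The level over the 74 tested genes was −0.91, 0.67 and −0.44 in rapa offspring, 0.51, 0.38 and 0.0150 in aged offspring, and −0.23, 0.70, −0.55 and −0.10 in young offspring. The highest and lowest libraries of rapa and young offspring lay outside the range of the aged offspring. All 74 genes were above their own mean in rapa replicate 2, young replicate 2 and aged replicate 1, and none were in rapa replicates 1 and 3. The SD over libraries had a median of 0.56 in log2 CPM over the 74 genes, against 0.29 over all genes tested.

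Rplp1 of the stalk, Rps6 of the small subunit and Rpl4 of the exit tunnel followed this order. Rplp1 stood at 317, 1179 and 486 CPM in rapa offspring, 925, 891 and 659 CPM in aged offspring, and 539, 1148, 422 and 654 CPM in young offspring. Rps6 stood at 162, 388 and 223 CPM in rapa offspring, 386, 327 and 292 CPM in aged offspring, and 248, 406, 206 and 261 CPM in young offspring. Rpl4, a large-subunit protein whose loop reaches into the exit tunnel, stood at 502, 1099 and 622 CPM in rapa offspring, 995, 928 and 783 CPM in aged offspring, and 683, 1036, 570 and 748 CPM in young offspring. In all 3 genes replicate 2 of the rapa and of the young offspring was highest and rapa replicate 1 lowest. Rps2 did not follow it, with 319, 631 and 227 CPM in rapa offspring, 598, 444 and 530 CPM in aged offspring, and 465, 518, 374 and 284 CPM in young offspring, lowest in rapa replicate 3. The spread was smallest for Rps15a (SD of 0.33 in log2 CPM), Rpl3 (0.37) and Rpl4 (0.39), and largest for Rpl35a (0.79), Rps14 (0.73) and Rpl39 (0.71). Shorter genes varied more: the median SD was 0.60 in the shortest 25 genes by coding length, 0.55 in the middle 24 and 0.50 in the longest 25.

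Coding length ordered the other genes of the hippocampus in the same libraries. The 830 other genes with under 450 coding bases had levels of −0.47, 0.36 and −0.32 in rapa offspring, 0.21, 0.17 and 0.04 in aged offspring, and −0.08, 0.49, −0.29 and −0.02 in young offspring. The 1300 other genes with over 3600 coding bases had levels of 0.38, −0.31 and 0.28 in rapa offspring, −0.17, −0.18 and −0.02 in aged offspring, and 0.10, −0.39, 0.29 and 0.04 in young offspring. Short genes were high and long genes low in the libraries where ribosomal protein genes were high. Respiratory chain genes, 72 tested, stood at −0.77, 0.50 and −0.41 in rapa offspring, 0.24, 0.25 and 0.07 in aged offspring, and −0.10, 0.70, −0.42 and −0.05 in young offspring. Mitochondrial ribosomal protein genes, 74 tested, stood at −0.45, 0.36 and −0.34, then 0.16, 0.16 and 0.07, then −0.04, 0.53, −0.29 and −0.05 in the same libraries.

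Markers of some other cell types also went with the level. The 6 endothelial markers summed to 187, 65.5 and 177 CPM in rapa offspring, 78.9, 73.5 and 74.97 CPM in aged offspring, and 174, 60.7, 154 and 158 CPM in young offspring. The 5 libraries with sums under 80 CPM were the 5 with a ribosomal protein level above 0. The 6 oligodendrocyte markers summed to 2635, 9654 and 4746 CPM in rapa offspring, 7635, 9862 and 4087 CPM in aged offspring, and 3021, 9698, 3853 and 3932 CPM in young offspring. The 6 astrocyte markers summed to 4619 to 5256 CPM in the 5 libraries with a level above 0. In the others they summed to 3898 to 4354 CPM. Microglia markers were highest in rapa replicate 2 and young replicate 2, at 572 and 663 CPM, against 350 to 451 CPM elsewhere. Neuron markers summed to between 10043 and 12423 CPM. The part of transcript length, of cell makeup or of single libraries in the ribosomal protein levels was not tested.

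**Figure D5:**
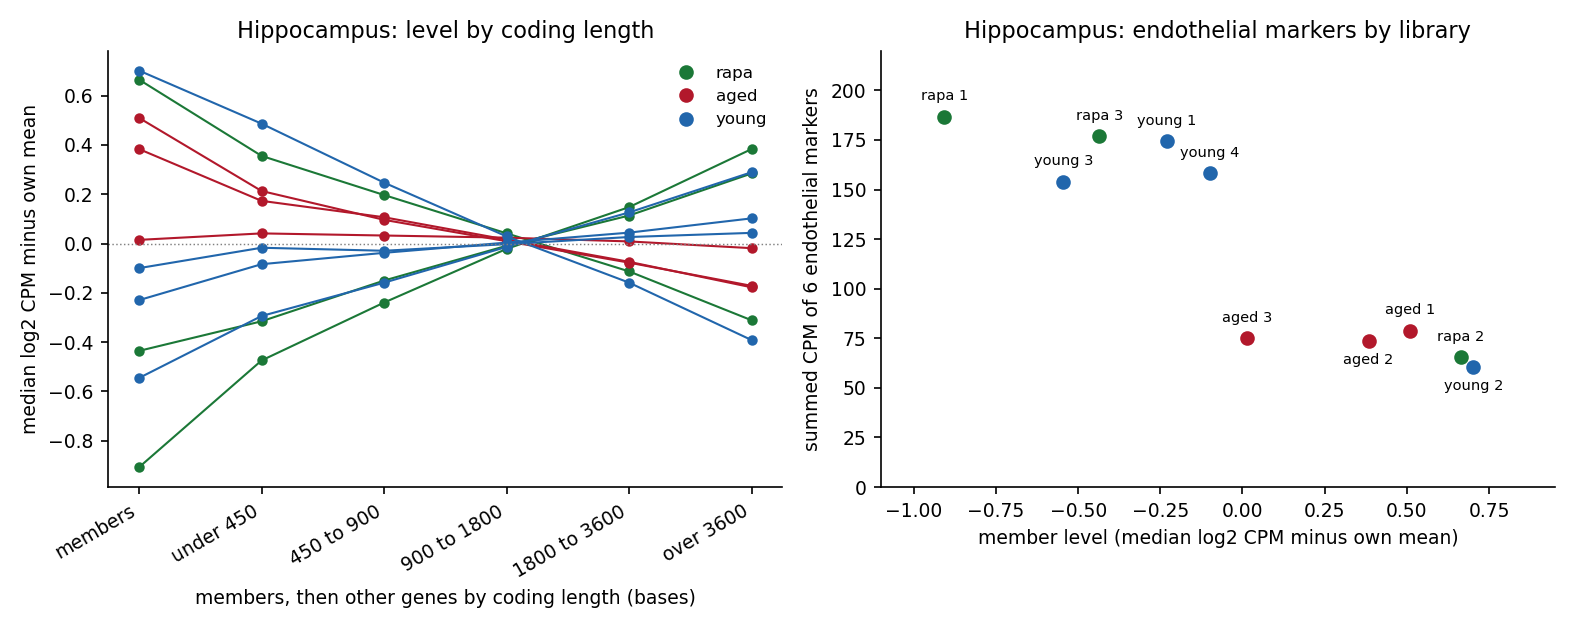
Left, the level (median log2 CPM minus own mean) of ribosomal protein genes (members) and of other genes by bins of coding length in bases, one line per hippocampus library; right, the summed CPM of 6 endothelial markers against the level of ribosomal protein genes, one point per library, with groups by colour. Libraries high for genes under 450 coding bases are low for genes over 3600, and the 5 libraries with endothelial sums under 80 CPM are the 5 with a ribosomal protein level above 0.

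The hippocampus comparison of aged with young offspring asked how the age of the mother bears on the adult brain of her offspring. Of the 74 genes, 73 had a log2 fold change above 0 and 1 below 0, with a median of 0.28, against −0.01 over all genes tested. edgeR's quasi-likelihood test called 0 of the 74, with a lowest adjusted p of 0.990, where 0.0471% of all genes passed. DESeq2 called 0 of the 74 and 0.35% of all genes. At an unadjusted p under 0.05, 0 of the 74 were higher and 0 lower, where 2.02% and 1.49% of all genes were. Aged and young libraries overlapped for all 74, where 2.92% of all genes lay wholly higher and 2.52% wholly lower. The gene of smallest p was Rpl35a, a large-subunit protein at chr16:33056453-33060189 that is mutated in some patients with Diamond-Blackfan anaemia. It averaged 163 ± 54.2 CPM in aged offspring (SD, n = 3) and 96.3 ± 40.5 CPM in young offspring (SD, n = 4), a log2 fold change of 0.76 ± 0.42 (SE). Rpl22, Rps2, Rpl39 and Rps4x followed, with log2 fold changes of 0.34 ± 0.28, 0.35 ± 0.32, 0.50 ± 0.45 and 0.34 ± 0.33.

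The comparison of rapa with aged offspring, which shares the aged libraries, gave fold changes of the opposite sign. Of the 74 genes, 73 were below 0 and 1 above 0, with a median of −0.38, against 0.02 over all genes tested. edgeR's quasi-likelihood test called 0 of the 74, with a lowest adjusted p of 0.796, and 0 of 14877 genes (0%). DESeq2 called 0 of the 74 and 0.0989% of all genes. At an unadjusted p under 0.05, 1 was lower and 0 higher, where 1.99% and 2.53% of all genes were. That gene was Rpl35a, which stood at 36.8, 117 and 64.1 CPM in rapa offspring, against 206, 102 and 181 CPM in aged offspring, and at 66.9, 128, 56.2 and 134 CPM in young offspring. Rapa replicate 2 lay above aged replicate 2, so the groups overlapped. The log2 fold change of rapa over aged was −1.17 ± 0.46, with an edgeR adjusted p of 0.796. Rapa and aged libraries overlapped for all 74 genes, where 5.01% of all genes lay wholly higher and 4.88% wholly lower.

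The next by p for rapa over aged offspring were Rpsa, Rpl7, Rps15a and Rpl24, with log2 fold changes of −0.75 ± 0.43, −0.57 ± 0.36, −0.36 ± 0.24 and −0.53 ± 0.37. Rpsa, mutated in people born without a spleen, stood at 230, 712 and 332 CPM in rapa offspring, against 794, 774 and 578 CPM in aged offspring. Rapa replicate 2 lay between the aged libraries. In both comparisons the 1 gene of opposite sign was Rps27, which rests on 2 to 13 counts per library.

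For rapa against young offspring, 69 of the 74 genes had a log2 fold change below 0 and 5 above 0, with a median of −0.10, against 0.01 over all genes tested. edgeR's quasi-likelihood test called 0, with a lowest adjusted p of 0.999, where 0.0538% of all genes passed. DESeq2 called 0 of the 74 and 0.242% of all genes. At an unadjusted p under 0.05, 0 of the 74 were higher and 0 lower, where 2.29% and 1.34% of all genes were. Rapa and young libraries overlapped for all 74, where 2.93% of all genes lay wholly higher and 2.1% wholly lower. Rpsa was lowest by p, at a log2 fold change of −0.51 ± 0.40, followed by Rpl35a at −0.41 ± 0.43, Rpl7 at −0.27 ± 0.34, Rpl10a at −0.24 ± 0.34 and Rpl23 at −0.23 ± 0.35. The median was 0.18 without young replicate 2 and −0.69 without rapa replicate 2. Without rapa replicate 1, 69 genes were above 0 and 5 below 0. The counts were 37 and 37 without rapa replicate 3, and 71 and 3 without young replicate 2. The shared direction therefore depends on single libraries.

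Parts of the ribosome and gene groups tied to its production were compared by median log2 fold change. In aged over young oocytes the medians were −1.13 for the 3 stalk genes, −1.01 for the 2 genes of the 5S particle, −1.25 for 8 genes of the exit tunnel and −1.07 for 7 genes at mRNA entry and decoding. At the mRNA exit, 4 genes had a median of −0.16, with 2 above and 2 below 0. Of 18 tested Diamond-Blackfan anaemia genes, 13 were below 0 and 5 above 0, with a median of −0.66. In rapa over aged oocytes the medians of the same groups were 0.95, 0.75, 1.68, 2.11, 0.68 and 1.12, and every gene in them was above 0. The medians without rapa replicate 1 were 0.73, 0.95, 1.04, 1.03, 0.57 and 0.72. edgeR called none of these genes with all libraries.

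Ribosomal protein genes that the symbol rule leaves out, such as Fau, had medians of 1.18 in rapa over aged oocytes and −0.70 in aged over young oocytes, over 9 tested genes. The 15 genes listed as other TOP mRNAs had medians of 0.57 and −0.15. Among them, the nucleolar chaperone Npm1 had a log2 fold change of −0.91 ± 0.31 in aged over young oocytes, the poly(A)-binding protein Pabpc1 1.50 ± 0.49 in rapa over aged oocytes, and neither passed with all libraries. Without rapa replicate 1, Npm1 stood at −0.92 ± 0.19 with an edgeR adjusted p of 0.0200. Proteins that bind TOP mRNAs, 5 tested, had medians of 0.49 and −0.84. Ribosome assembly factors, 35 tested, had medians of −0.11 and −0.03, RNA polymerase I factors, 15 tested, 0.30 and −0.07, and mTORC1 and S6 kinase genes, 15 tested, −0.02 and 0.20. In rapa over aged oocytes without rapa replicate 1, the medians were 0.74 for the genes outside the rule, 0.30 for the other TOP mRNAs, 0.72 for the binding proteins, 0.17 for assembly factors, where the sign turned, 0.26 for RNA polymerase I factors and −0.32 for mTORC1 and S6 kinase genes. With all libraries, edgeR called 0 genes of these 6 groups in both comparisons. In aged against young oocytes without rapa replicate 1 it called 3 other TOP mRNAs, 1 binding protein, 2 assembly factors and 1 mTORC1 or S6 kinase gene, where it called 6.27% of all genes higher and 5.16% lower. The paralogue Rpl7l1, named after its values were seen, stood at 21.8, 6.25 and 6.18 CPM in rapa oocytes, against 1.09 and 1.05 CPM in young oocytes, and at 3.23 and 3.15 CPM in aged oocytes. Its log2 fold change of rapa over young was 3.38 ± 0.80, with an edgeR adjusted p of 0.225, and 2.54 ± 0.55 with an adjusted p of 0.0407 without rapa replicate 1.

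One assembly factor passed in the comparison of rapa with young oocytes. Rrs1, which helps to build the large subunit, stood at 108, 23.1 and 29.2 CPM in rapa oocytes, 36.9 and 27.4 CPM in aged oocytes, and 0.872 and 0.465 CPM in young oocytes. The young libraries lay far below the other 5 and near the level of 3 counts, which is 0.654 and 0.349 CPM in them. Fold changes of Rrs1 against young oocytes therefore rest on few counts in the young libraries. For rapa over young oocytes, the log2 fold change of Rrs1 was 6.34 ± 0.98, with an edgeR adjusted p of 0.0488, and 5.36 ± 0.48 with an adjusted p of 0.000396 without rapa replicate 1. For aged over young oocytes it was 5.61 ± 0.98, with an edgeR adjusted p of 0.0882, and 5.63 ± 0.48 with an adjusted p of 0.000315 without rapa replicate 1. In hippocampus, edgeR called none of the genes in these lists. The other TOP mRNAs had medians of −0.15 in rapa over aged offspring and 0.16 in aged over young offspring, with 14 of 15 genes below 0 in the first and 14 of 15 above 0 in the second. Assembly factors had medians of −0.09 and 0.01, RNA polymerase I factors −0.03 and 0.02, and mTORC1 and S6 kinase genes 0.16 and −0.04 in the same comparisons.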

How the data were processed

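Per the submitters' processing notes, STAR, HTSeq and the mm10 build were used; versions, annotation and strand setting: not given in the sources used here. Overlapping or antisense genes therefore cannot be told apart. The deposited values are raw read counts per gene, with no normalization by the authors. Oocyte libraries were made by oligo-dT priming, template switching, PCR and tagmentation, and hippocampus libraries by poly(A) selection, per the labels' protocols. Reads are not independent molecules, so floors cover counting error only. The 5 rows that name no gene were left out of library sizes, and the shares of reads without a unique position are given with the results.

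Each tissue was fitted alone over its 3 groups. Genes were kept with filterByExpr, scaled by trimmed mean of M values (TMM) factors and tested with edgeR 4.0.16 (quasi-likelihood F-test, R 4.3.3, limma 3.58.1), with Benjamini-Hochberg adjusted p-values over every gene of the fit, called under 0.05. Standard errors are the log2 fold change over the root of F. Levels are TMM-normalised CPM. DESeq2 1.42.0 was an alternative; others were relative log expression scaling, TMM without the ribosomal protein genes, no filter, a filter of 10 CPM, only the 2 groups compared, a replicate block, thinning to the smallest library, leaving out Rn45s in oocytes and leaving out each library. The code was tested on simulated counts. Figures were drawn with Python 3.11.15 and matplotlib 3.10.9. Symbols were matched to GENCODE M21 on GRCm38 (23574 of 24491 matched 1 gene), whose transcripts gave coding lengths and unique 75-base words; all genes with coordinates above are protein-coding.

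The genes and lists were chosen with earlier results of these data known. The text names genes past the threshold or the 5 of smallest p, anchors chosen for their role, the 3 highest, lowest, most and least variable genes, those the filter removed and up to 3 of each list by p. Rpl28, Rps26 and Rpl13a were named after their values were seen. A few genes within the rule are not reported here.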

Additional observations from a re-analysis of the deposited data

How the results depend on the processing

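In oocytes, the count of ribosomal protein genes called in aged against young moved with the settings, being 0 with all libraries, 1 with no low-count filter (Rps2, adjusted p of 0.0274 in edgeR) and 7 with only the 2 groups compared. Leaving out each library gave 0 to 7, with 7 without rapa replicate 1. In the other 5 comparisons it was 0 under every alternative, leaving out single libraries included. The median log2 fold change of rapa over young oocytes was 0.16 with a filter of 10 CPM, which left 26 genes above 0 and 10 below. Leaving out each library in turn gave medians of 0.77 (without rapa replicate 1) to 1.62 (without aged replicate 2) for rapa over aged oocytes, −1.19 (without aged replicate 2) to −0.32 (without aged replicate 1) for aged over young oocytes and 0.21 (without rapa replicate 1) to 1.04 for rapa over young oocytes. A lone library was then assumed to vary like the other groups. The ranges were −0.96 (without rapa replicate 2) to −0.13 (without rapa replicate 1) for rapa over aged offspring, 0.13 (without young replicate 3) to 0.59 (without young replicate 2) for aged over young offspring and −0.69 (without rapa replicate 2) to 0.18 (without young replicate 2) for rapa over young offspring. In rapa over young offspring, the log2 fold change of Rpl7 ranged from −0.72 to 0.013, that of Rpl10a from −0.67 to 0.063 and that of Rpl23 from −0.69 to 0.065, each lowest without rapa replicate 2 and highest without young replicate 2. Without rapa replicate 1, 69 genes of the set were above 0 and 5 below 0. Rpl23 was among those above, at 0.019, and the cause was not tested. Both other scalings kept the sign of all 6 medians.

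The 9 genes with at least 90% unique words, an alternative added after seeing the data along with that at 50%, had medians of 1.07 for rapa over aged oocytes and −0.73 for aged over young oocytes; a planned check against the genome was not run because no genome was used here. Whether the replicate numbers pair the libraries could not be decided. Same-numbered libraries correlated at −0.18 to 0.64 in their deviations, and not every library correlated best with its own number. The highest value, 0.64, was that of replicate 2 of rapa and of young offspring. In aged and in young oocytes the 2 libraries of a group deviate as mirror images, so their correlations cannot show pairing. With the replicate block, medians were 1.33 for rapa over aged, −0.62 for aged over young and 1.04 for rapa over young oocytes, and −0.53, 0.37 and −0.17 in hippocampus, and 0 genes of the set were called. Over all genes, aged against young oocytes had 27 calls, 0 to 1168 leaving out single libraries, 288 by DESeq2, 167 with no filter, 1177 with only the 2 groups and 1 with the block. Rapa against aged oocytes had 0, 0 to 6 leaving out single libraries and 11 by DESeq2 and with no filter. Rapa against young oocytes had 43, 0 to 304, 243 by DESeq2, 179 with no filter, 25 with a filter of 10 CPM, 14 with only the 2 groups and 0 with the block. Rapa against aged offspring had 0, 0 to 1, 13 by DESeq2 and 2 with only the 2 groups. Aged against young offspring had 7, 0 to 15, 52 by DESeq2 and 2 with only the 2 groups. Rapa against young offspring had 8, 2 to 10, 36 by DESeq2, 5 with only the 2 groups or a filter of 10 CPM and 4 with the block. Thinning every library to the smallest total of its tissue left the count of called ribosomal protein genes at 0.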

Other observations

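Paralogues of ribosomal protein genes with symbols of their own are given here as counts beside the canonical gene. Library totals differ, so the counts compare genes within a library and not one library with another. Rps27l had 4852, 4228 and 2769 counts in rapa oocytes, 902 and 1901 in aged oocytes, and 2417 and 4822 in young oocytes, while Rps27 was at 0 in all 7. In CPM, Rps27l stood at 1304, 629 and 417 in rapa oocytes, 243 and 427 in aged oocytes, and 527 and 561 in young oocytes. Of their 75-base words, 88% were unique in Rps27l and 1.48% in Rps27. In hippocampus Rps27l had 100 to 328 counts and Rps27 2 to 13. Rpl37rt, a retrotransposed copy, had 313, 1286 and 1730 counts in rapa oocytes, 404 and 633 in aged oocytes, and 683 and 1395 in young oocytes, against 139, 300 and 395, 78 and 178, and 208 and 364 for Rpl37 in the same libraries. In hippocampus the order was the other way, with 39 to 150 counts for Rpl37rt and 2097 to 6267 for Rpl37. Rpl39l, known from male germ cells, exceeded Rpl39 in 6 of 7 oocyte libraries, with 14, 58 and 64 counts in rapa oocytes, 17 and 39 in aged oocytes, and 40 and 67 in young oocytes, against 29, 11 and 12, 2 and 6, and 12 and 15 for Rpl39. It had 0 to 2 counts in hippocampus. Rpl10l had 0, 40 and 36 counts in rapa oocytes, 5 and 9 in aged oocytes, and 28 and 48 in young oocytes, and 0 in all hippocampus libraries. Rapa replicate 1 was the oocyte library without Rpl10l and the one in which Rpl39 exceeded Rpl39l. Rpl26l1 was not analysed here. These paralogues were chosen after their values were seen.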
